A study of Homo sapiens with 24 samples.

Results

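HGC27 is an established human gastric carcinoma cell line, and SG12 is a derivative labelled as a knockout of TMEM97. This gene encodes the sigma-2 receptor, an endoplasmic reticulum protein and partner of NPC1, which moves cholesterol out of lysosomes. The comparison set SG12 cells kept for 3 days in LPDS medium (3 libraries) against SG12 cells kept for 3 days in FBS medium (3 libraries), 6 of the 24 libraries of the series, taken by their labels. The other 18 libraries are the knockout line SG21, the control-guide line SGCTRL and parental HGC27, 3 per medium. They were used to share the estimate of spread and to ask whether the response of SG12 differed. The labels do not spell out FBS (in common use, fetal bovine serum) and LPDS (in common use, serum stripped of lipoproteins). All groups were grown in high glucose DMEM. The sequence and target position of the guides, and whether SG12 is 1 clone or a pool, are not given in the sources used here. The labels call the replicates biological but do not say whether cultures were separate. The p-values therefore cover only the spread between these samples, which may be partly technical.

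Cells make cholesterol from acetyl-CoA through the mevalonate pathway or take it up with lipoproteins. When sterols in the endoplasmic reticulum run low, the transcription factor SREBP-2 is released by cleavage and switches on the synthesis enzymes, receptors for lipoproteins and TMEM97 itself, and SREBP-1 does the same for fatty acid synthesis. TMEM97 is known to affect the level of NPC1.

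The deposited counts have to be read with their strand in mind. The library kit keeps strand, but reads on no gene made up 94.28% to 94.58% of the uniquely aligned reads in the SG12 libraries, and the abundant entries were mostly genes that lie across an expressed gene of the opposite strand. Each table entry was therefore read as the gene whose exons it overlaps on the opposite strand (by at least 50 bases, and at least 80% of all such overlap), here called its source gene, with exons from GENCODE release 29 on GRCh38. An entry covers only part of its source gene, so a level in CPM (counts scaled to a common library total) can be compared between samples but not between genes. Source genes averaging over 5.74 CPM in the 24 libraries were used. That is the 90th percentile of the level of 9461 protein-coding entries with no gene opposite to them, and it left 2830 protein-coding source genes. The SG12 libraries held 2532742 to 3252414 counted reads. Replicate 3 in FBS stood apart from FBS replicates 1 and 2. Its correlations of log2 CPM with them were 0.9477 and 0.948, against 0.9624 between those. With the LPDS libraries the correlation was 0.9344 to 0.9347, against 0.9162 to 0.9199 for the other FBS libraries. The entry TALAM1 is named for an antisense RNA of the MALAT1 locus. It took 8.28% to 9.53% of counts in LPDS, and 4.47%, 5.34% and 10.6% in FBS replicates 1 to 3. Its log2 fold change was 0.37 (edgeR adjusted p = 0.154), and 0.82 without FBS replicate 3 (edgeR adjusted p = 6.12e-05). This entry had no match in GENCODE release 29 and so got no source gene. By the strand reading above its reads would be those of MALAT1, which was not tested. Ambiguous reads made up 2.994% to 3.148% of reads on genes in LPDS and 2.629% to 2.802% in FBS. The part of these library differences in the results was not tested, and values without FBS replicate 3 are given beside several of them.

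The label of an epithelial stomach line could be checked only in part. CDH3 was the 1 readable epithelial marker of 20, and in SG12 it lay mostly below that floor, at 3.46 to 5.07 CPM in LPDS and 3.1 to 6.98 CPM in FBS. VIM, the intermediate filament of mesenchymal cells, was at 26871, 32188 and 33236 CPM in LPDS, against 25367, 23304 and 22604 CPM in FBS. Its log2 fold change was 0.37 (edgeR adjusted p = 0.0136). That call was lost without FBS replicate 2 or 3, without LPDS replicate 2 or 3, and with DESeq2. Of 7 readable mesenchymal markers 2 rose, 1 fell (AXL, -0.92) and 4 did not pass, where 15.1% of all source genes rose and 19% fell. GATA6, a transcription factor of stomach and gut and the 1 readable gastric marker of 17, had 79.3, 89.3 and 86.6 CPM in LPDS, against 182, 180 and 157 CPM in FBS (log2 fold change -1.03 ± 0.13, adjusted p = 2.79e-07), and a second entry, GATA6-AS1, gave -0.59 and did not pass (adjusted p = 0.227). None of 14 leukocyte markers was readable.

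The targeted gene was itself among the genes that rose most. TMEM97 (chromosome 17, 28319095 to 28328685, plus strand) is read through the entry of its neighbour IFT20, which overlaps its 3′ end by 361 bases, and the reciprocal entry reads IFT20, a subunit of ciliary transport. TMEM97 transcript measured 213, 192 and 180 CPM in LPDS, against 57.5, 49.7 and 51.3 CPM in FBS (log2 fold change 1.88 ± 0.13, adjusted p = 6.32e-14). Here and throughout, a fold change carries its standard error after ±, and p comes from the edgeR quasi-likelihood F test with Benjamini-Hochberg adjustment. The groups did not overlap. In FBS the level was lowest in SG12, at 52.8 ± 4.1 CPM against 131 ± 12.8 CPM in SGCTRL, 76 ± 2.96 CPM in SG21 and 105 ± 14.9 CPM in parental cells (SD, n = 3 each). In LPDS it was 195 ± 16.8 CPM in SG12, 162 ± 11.5 CPM in SGCTRL, 124 ± 3.92 CPM in SG21 and 153 ± 14.9 CPM in parental cells. A guide cut can leave the transcript in place, and counts at the 3′ end do not show whether the protein is lost. IFT20 was at 63.3, 58.9 and 65.1 CPM in LPDS and 84, 80 and 84.2 CPM in FBS (log2 fold change -0.41 ± 0.15, adjusted p = 0.04), a call that did not hold when any single SG12 library was left out (adjusted p = 0.0504 to 0.126). NPC1 had 96.3, 95 and 73.2 CPM in LPDS and 77.1, 72.6 and 98.2 CPM in FBS, overlapping groups with a log2 fold change of 0.10 ± 0.16 (adjusted p = 0.715). PGRMC1, another protein once assigned to the sigma-2 receptor, was not readable.

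Over the whole table, 2882 of 12822 tested entries passed an adjusted p of 0.05 (22.5%), 1488 higher in LPDS (11.6%) and 1394 lower (10.9%). Among the 2830 protein-coding source genes, 967 passed (34.2%), 428 higher (15.1%) and 539 lower (19%). Of those, 124 were higher by over 1 on the log2 scale and 82 were lower by as much. In 1412 of the 2830 source genes (49.9%), called or not, the 3 LPDS libraries lay fully apart from the 3 FBS libraries. Separate groups, given for single genes in this report, are thus common. The median log2 fold change was 0.02 over all entries and -0.05 over these source genes, so most of the shifts described next are far from the middle of the distribution. Without FBS replicate 3, 1453 entries were higher and 1526 lower, and with DESeq2 size factors in edgeR the counts were 1403 higher and 1548 lower. Among entries, which side was larger thus depended on the scaling and on single libraries. Among source genes more were lower than higher under every alternative run. The counts were closest with no filter on low counts (390 higher, 402 lower), and were 388 higher and 607 lower with DESeq2.

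**Figure D1:**
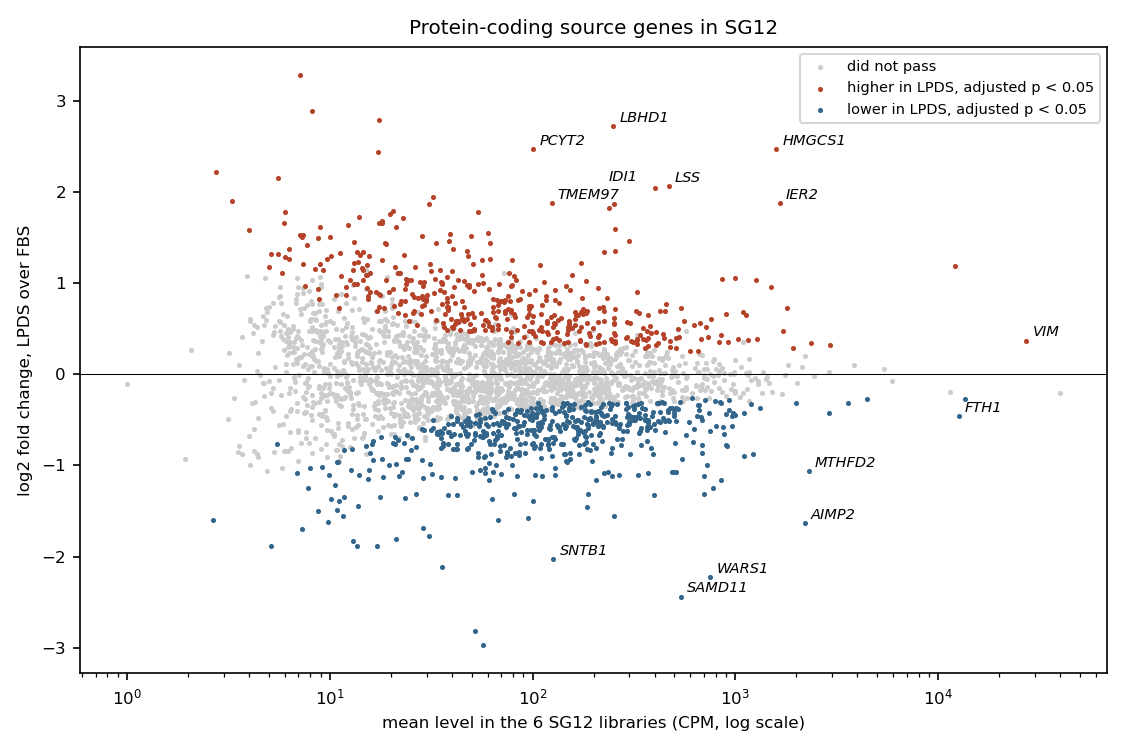
Each point is 1 of 2830 protein-coding source genes in SG12, with the mean level of the 6 libraries in CPM on a log x axis and the log2 fold change of LPDS over FBS on the y axis, red where higher and blue where lower at an adjusted p under 0.05. HMGCS1 (2.47) and LBHD1 (2.72) lie at the top and SAMD11 (-2.44) and WARS1 (-2.23) near the bottom, while the abundant VIM and FTH1 are at 0.37 and -0.46.

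Cholesterol synthesis enzymes made the clearest group. Of 22 genes on the list, 6 were readable, and 5 of them rose while none fell, with a median log2 fold change of 1.94 against -0.05 over all source genes. Of all source genes 15.1% rose and 19% fell. HMGCS1, which condenses acetyl-CoA units into HMG-CoA (chromosome 5, 43289395 to 43313512, minus strand), had 2483, 2823 and 2756 CPM in LPDS, against 437, 449 and 569 CPM in FBS (log2 fold change 2.47 ± 0.11, adjusted p = 2.94e-19). LSS, which closes squalene epoxide into lanosterol (chromosome 21, 46188141 to 46228824, minus strand), had 680, 787 and 803 CPM in LPDS, against 184, 180 and 175 CPM in FBS (log2 fold change 2.07 ± 0.10, adjusted p = 5.02e-18). IDI1, which isomerises isopentenyl diphosphate (chromosome 10, 1039152 to 1049170, minus strand), measured 642, 604 and 688 CPM in LPDS, against 116, 175 and 176 CPM in FBS (log2 fold change 2.05 ± 0.18, adjusted p = 3.36e-11). Every LPDS library lay above every FBS library for these enzymes, and the group means in LPDS were 5.54, 4.21 and 4.14 times those in FBS. ACAT2, which makes acetoacetyl-CoA at the start (chromosome 6, 159760328 to 159779055, plus strand), was at 392, 374 and 381 CPM in LPDS, against 122, 128 and 127 CPM in FBS (log2 fold change 1.60 ± 0.11, adjusted p = 4.75e-14). FDFT1, the squalene synthase, differed from the rest. It was read at 32.1, 32.1 and 25.7 CPM in LPDS and 25.1, 22.3 and 30.8 CPM in FBS through an overlap of 217 bases, and the groups overlapped (log2 fold change 0.21 ± 0.21, adjusted p = 0.515).

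FDPS could not be read alone. The entry RUSC1-AS1 covers 693 exon bases of FDPS, the farnesyl diphosphate synthase, and 398 of RUSC1, and it had 4986, 5614 and 5662 CPM in LPDS, against 1322, 1450 and 1504 CPM in FBS (log2 fold change 1.93 ± 0.08, adjusted p = 2.29e-19). Of other entries shared with sterol genes, neither CYP51A1-AS1 (log2 fold change 0.79, adjusted p = 0.0914) nor STARD4-AS1 (log2 fold change 0.20, adjusted p = 0.0719) passed. These entries fall outside the naming rule and were chosen after their values were seen, and how much of the reads comes from each overlapped gene is not known.

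**Figure D2:**
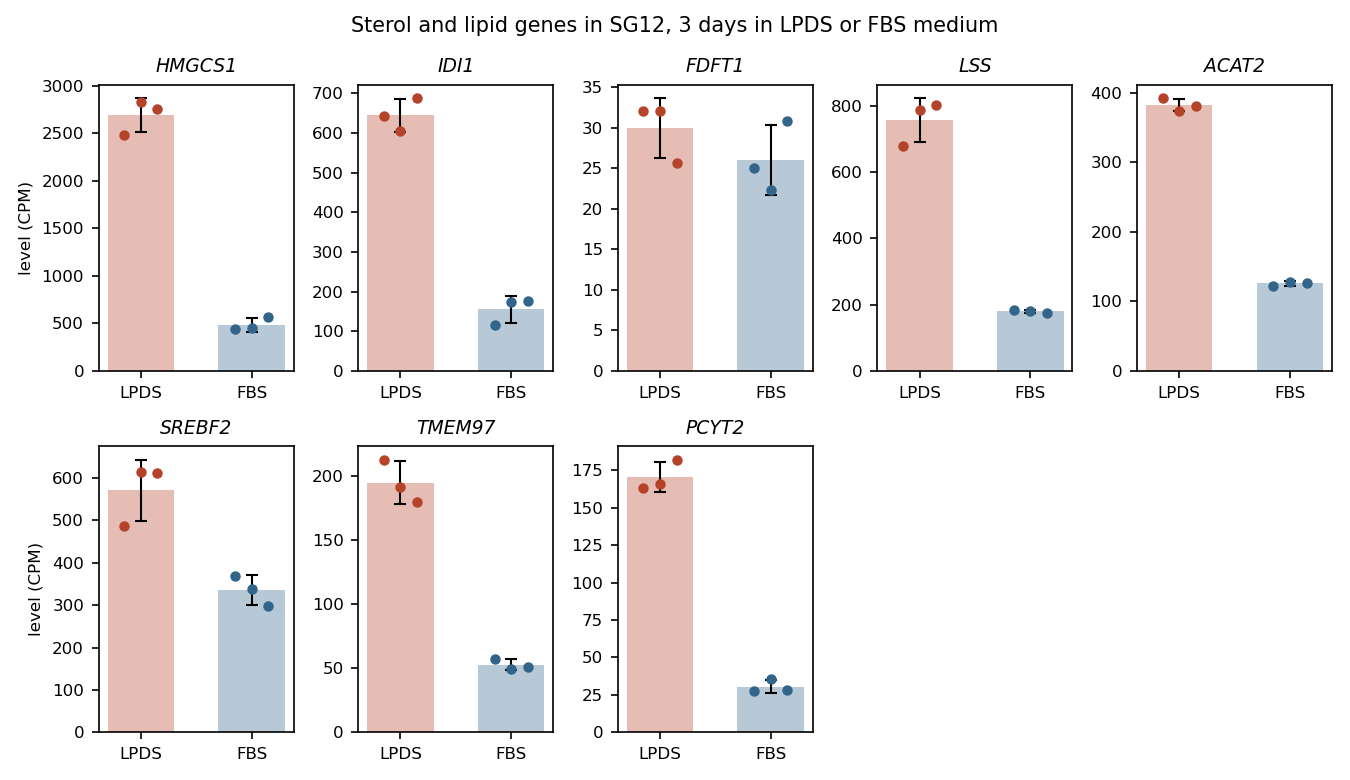
Bars show the mean level in CPM of 3 SG12 libraries in LPDS (red, left) and FBS (blue, right) for 8 genes, points the single libraries and error bars the SD. The LPDS libraries stand above the FBS libraries for every gene shown except FDFT1, whose points overlap.

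Genes of sterol uptake and SREBP control moved less evenly. Of 29 genes on the list 9 were readable, 5 rose, 1 fell (2 without LPDS replicate 3) and 3 did not pass, with a median log2 fold change of 0.77. The shares over all source genes were 15.1% higher and 19% lower. LRP8, a lipoprotein receptor, had 81.5, 94 and 86.9 CPM in LPDS, against 36.5, 32.6 and 39.8 CPM in FBS (log2 fold change 1.27 ± 0.13, adjusted p = 2.64e-09). A second entry over another part of LRP8 gave 1.21, so 2 entries show its rise. SREBF2, which encodes SREBP-2, measured 487, 613 and 612 CPM in LPDS, against 369, 337 and 299 CPM in FBS (log2 fold change 0.77 ± 0.11, adjusted p = 2.27e-06). SREBF1, which encodes SREBP-1, had 47.5, 63.6 and 63.8 CPM in LPDS, against 20, 22.6 and 25.1 CPM in FBS (log2 fold change 1.37 ± 0.20, adjusted p = 2.15e-06). In both genes the 3 LPDS libraries lay above the 3 FBS libraries. VLDLR measured 68.6, 81.2 and 97.3 CPM in LPDS and 108, 105 and 128 CPM in FBS (adjusted p = 0.0537). ERLIN2, a membrane scaffold of the endoplasmic reticulum, had a log2 fold change of -0.02 ± 0.18 (adjusted p = 0.951).

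The promoters of 2310 of the 2830 source genes were matched by symbol in RefSeq (GRCh38.p14, 250 bases before to 50 after the start), and those of SREBF2, HMGCS1 and TMEM97 are shown as examples of genes that rose and were in that table, SREBF2 because it holds a sterol element. SREBF2 lies at chr22:41832855-41833154 on the plus strand, HMGCS1 at chr5:43313363-43313662 on the minus strand and TMEM97 at chr17:28318950-28319249 on the plus strand. Capitals mark the sterol element TCACNCCAC and the CCAAT box, searched on both strands, together with the E-box CACGTG and TGATGNAA, and no marked stretches overlap.
SREBF2: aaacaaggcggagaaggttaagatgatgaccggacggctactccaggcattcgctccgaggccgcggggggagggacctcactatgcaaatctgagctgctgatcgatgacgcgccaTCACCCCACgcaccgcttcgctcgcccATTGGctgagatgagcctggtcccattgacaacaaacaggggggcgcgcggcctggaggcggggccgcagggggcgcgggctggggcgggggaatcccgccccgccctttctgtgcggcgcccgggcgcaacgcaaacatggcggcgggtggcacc
HMGCS1: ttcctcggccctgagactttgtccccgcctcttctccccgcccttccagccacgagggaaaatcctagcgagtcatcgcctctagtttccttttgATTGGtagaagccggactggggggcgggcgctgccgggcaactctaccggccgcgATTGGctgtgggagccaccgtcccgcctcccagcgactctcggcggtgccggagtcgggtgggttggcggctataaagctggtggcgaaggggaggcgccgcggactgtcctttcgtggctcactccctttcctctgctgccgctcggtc
TMEM97: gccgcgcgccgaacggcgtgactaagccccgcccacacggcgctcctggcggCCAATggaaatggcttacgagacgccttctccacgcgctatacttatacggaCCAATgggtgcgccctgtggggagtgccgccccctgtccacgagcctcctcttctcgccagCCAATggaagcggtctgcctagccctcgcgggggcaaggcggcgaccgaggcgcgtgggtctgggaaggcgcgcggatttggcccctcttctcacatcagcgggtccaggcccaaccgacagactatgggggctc
The SREBF2 promoter holds TCACCCCAC starting 133 bases before the start and 1 CCAAT box, HMGCS1 holds 2 CCAAT boxes and TMEM97 holds 3. SREBF2 was the 1 match to TCACNCCAC in 6 promoters of the sterol uptake and SREBP control list, and 0 of 3 matched in the cholesterol synthesis list. LSS, IDI1, LRP8, SREBF1, PCYT2 and ACLY, which also rose, had no match. IER2 and ALDOC, which rose and are on no sterol list, each held a match starting 138 bases before the start. TCACNCCAC was found in 5 of 342 promoters of genes higher in LPDS (1.46%), in 5 of 421 of genes lower (1.19%) and in 313 of 27305 in the whole table (1.15%). The CCAAT box was found in 154 of 342 (45%) of the higher, 150 of 421 (35.6%) of the lower and 538 of 1547 (34.8%) of those that did not pass. These shares are descriptions with no test, and a match is not a shown binding site.

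Lipid genes beyond sterols showed large single changes rather than a shift of the whole list. Beside the 2 lists here, 15.1% of all source genes rose and 19% fell. Of 12 readable genes of fatty acid and glycerolipid synthesis, 5 rose and 2 fell (1 without FBS replicate 2 or without LPDS replicate 3, and 3 without FBS replicate 3), with a median of 0.15. PCYT2, which makes the CDP-ethanolamine used for phosphatidylethanolamine (chromosome 17, 81900965 to 81911464, minus strand), rose most of them, with 163, 166 and 182 CPM in LPDS, against 27.9, 35.5 and 28.3 CPM in FBS through 1941 bases (log2 fold change 2.47 ± 0.15, adjusted p = 3.78e-15). ACLY, which supplies cytosolic acetyl-CoA, was at 1120, 1222 and 1120 CPM in LPDS, against 576, 570 and 527 CPM in FBS (log2 fold change 1.05 ± 0.09, adjusted p = 9.05e-11). In both, the lowest LPDS library was above the highest FBS library. FADS2, a fatty acid desaturase, had 53.5, 46.7 and 41.3 CPM in LPDS, against 18.9, 25.5 and 25.9 CPM in FBS (log2 fold change 1.01 ± 0.18, adjusted p = 9.48e-05). ACSL3, which activates fatty acids at lipid droplets, measured 16.1, 11.2 and 14 CPM in LPDS, against 4.82, 6.13 and 6.16 CPM in FBS (log2 fold change 1.27 ± 0.31, adjusted p = 0.00258). Its FBS values lay near the floor of 5.74 CPM, so the size of its change is uncertain. LPCAT3, which puts polyunsaturated chains into phospholipids and is a target of the oxysterol receptor LXR, measured 1427, 1338 and 1271 CPM in LPDS, against 868, 885 and 764 CPM in FBS (log2 fold change 0.68 ± 0.09, adjusted p = 1.32e-06). DGAT2, which makes triacylglycerol, went the other way, with 83.1, 98.4 and 88.8 CPM in LPDS, against 163, 152 and 131 CPM in FBS (log2 fold change -0.72 ± 0.14, adjusted p = 0.0003). Both readable lipid droplet genes of 16 rose. PLIN3, a droplet coat protein, had 225, 284 and 231 CPM in LPDS, against 121, 139 and 103 CPM in FBS (log2 fold change 1.02 ± 0.13, adjusted p = 1.08e-07). BSCL2, the seipin that shapes new droplets, had 26.8, 17.6 and 18.2 CPM in LPDS, against 6.19, 6.13 and 12.7 CPM in FBS (log2 fold change 1.34 ± 0.30, adjusted p = 0.000962). In FBS replicates 1 and 2 it too lay near the floor of 5.74 CPM.

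Part of the genes of amino acid supply and tRNA charging fell in LPDS, where 19% of all source genes fell and 15.1% rose. Of 10 readable tRNA charging genes 5 fell, 5 did not pass and none rose (median -0.53). The integrated stress response is the program driven by ATF4 when amino acids are short or the endoplasmic reticulum is stressed. Of its 15 readable genes 9 fell, 1 rose and 5 did not pass (median -0.62). WARS1, the cytosolic tryptophanyl-tRNA synthetase (chromosome 14, 100333788 to 100376805, minus strand), had 283, 274 and 237 CPM in LPDS, against 1285, 1290 and 1141 CPM in FBS through 385 bases (log2 fold change -2.23 ± 0.10, adjusted p = 8.52e-19). AIMP2, a scaffold of the multi-synthetase complex (chromosome 7, 6009245 to 6023834, plus strand), had 1175, 1102 and 952 CPM in LPDS, against 3544, 3373 and 3074 CPM in FBS (log2 fold change -1.63 ± 0.10, adjusted p = 1.06e-14). Every LPDS library lay below every FBS library for both, and the LPDS means were 0.214 and 0.323 of the FBS means. MARS1, the methionyl-tRNA synthetase, was at 138, 114 and 109 CPM in LPDS, against 208, 208 and 242 CPM in FBS, read through 355 bases of the entry of DDIT3, which it overlaps (log2 fold change -0.87 ± 0.13, adjusted p = 6.3e-06). A second entry, over 519 bases of MARS1 at a mean of 8.96 CPM, gave 0.22 (adjusted p = 0.706), so the fall rests on the first entry.

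Among transporters, SLC7A5, which carries leucine and other large amino acids, had 555, 525 and 500 CPM in LPDS, against 1208, 1266 and 1065 CPM in FBS (log2 fold change -1.16 ± 0.16, adjusted p = 8.35e-07). SLC7A11, which imports cystine for glutathione, measured 226, 215 and 187 CPM in LPDS, against 449, 437 and 465 CPM in FBS (log2 fold change -1.10 ± 0.11, adjusted p = 1.46e-09). SLC1A5, a glutamine transporter, had 936, 869 and 789 CPM in LPDS, against 1741, 1650 and 1359 CPM in FBS (log2 fold change -0.87 ± 0.13, adjusted p = 3.74e-06). Like 49.9% of all source genes, all 3 transporters had separate groups. The mitochondrial folate enzymes went with them. MTHFD2 was at 1508, 1573 and 1379 CPM in LPDS, against 3236, 3254 and 2831 CPM in FBS (log2 fold change -1.06 ± 0.08, adjusted p = 1.63e-12), with a second entry at -0.81. ALDH1L2 was at 42.5, 35.5 and 34.5 CPM in LPDS, against 91.5, 72.6 and 73.1 CPM in FBS (log2 fold change -1.08 ± 0.16, adjusted p = 6.63e-06). VEGFA, a vascular growth factor on the same list, was at 495, 598 and 672 CPM in LPDS, against 890, 899 and 918 CPM in FBS (log2 fold change -0.62 ± 0.10, adjusted p = 1.17e-05). The 1 member that rose was EIF2AK3, the stress kinase PERK, named after its values were seen, with 156, 188 and 156 CPM in LPDS, against 104, 108 and 114 CPM in FBS (log2 fold change 0.62 ± 0.11, adjusted p = 0.000117). SHMT2 measured 545, 622 and 600 CPM in LPDS and 785, 701 and 637 CPM in FBS, with an adjusted p of 0.0556. Within the serine and one-carbon list, 3 of 8 readable genes rose and 3 fell (4 without FBS replicate 3, and 2 without FBS replicate 2 or LPDS replicate 2 or 3). The shares over all source genes were 15.1% higher and 19% lower. MAT2A, which makes S-adenosylmethionine, had 892, 803 and 842 CPM in LPDS, against 501, 482 and 784 CPM in FBS (log2 fold change 0.52 ± 0.12, adjusted p = 0.0012), and FBS replicate 3 lay nearest to the LPDS libraries there. SHMT1 (0.55) and MTHFD1 (0.29) also passed, but without FBS replicate 3 only MAT2A of the 3 did (MTHFD1 0.15, SHMT1 0.39), and without LPDS replicate 2 likewise 1 member rose.

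MARS1 is shown for the ATF4-type motif TGATGNAA at its start, at chr12:57487818-57488117 on the plus strand, with that motif in capitals as it reads on this strand.
MARS1: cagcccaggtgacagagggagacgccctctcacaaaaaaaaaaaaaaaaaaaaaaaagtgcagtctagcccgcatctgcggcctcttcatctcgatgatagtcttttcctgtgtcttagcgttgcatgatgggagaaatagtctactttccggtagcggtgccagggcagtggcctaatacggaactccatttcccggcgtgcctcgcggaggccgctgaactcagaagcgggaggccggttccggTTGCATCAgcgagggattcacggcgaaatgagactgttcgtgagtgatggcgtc
The match begins 4 bases before the start. TGATGNAA was found in 10 of 421 promoters of genes lower in LPDS (2.38%) and in 4 of 342 of genes higher (1.17%). It was found in 38 of 2310 of all readable source genes (1.65%) and in 1003 of 27305 in the whole table (3.67%). By list, 2 of 7 promoters of tRNA charging genes and 1 of 9 of the integrated stress response held it. These shares were not tested.

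**Figure D3:**
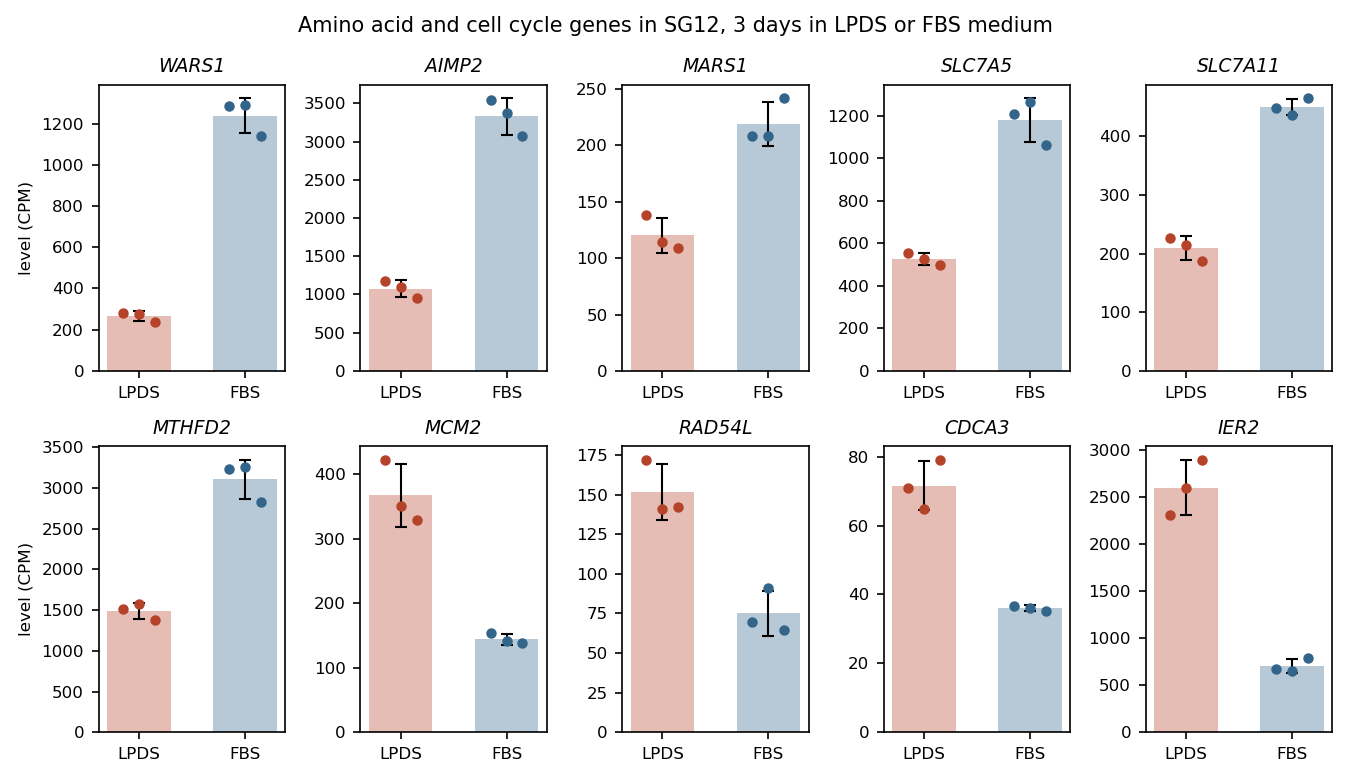
Bars show the mean level in CPM of 3 SG12 libraries in LPDS (red, left) and FBS (blue, right) for 10 genes, points the single libraries and error bars the SD. The 6 amino acid genes are lower in all LPDS libraries than in all FBS libraries, and MCM2, RAD54L, CDCA3 and IER2 are higher.

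Lists of genome duplication and division are given beside all source genes, of which 15.1% rose and 19% fell. In the DNA replication list, 5 of 12 readable members rose (4 without any 1 FBS library or without LPDS replicate 1). The 1 member called lower was GINS4, whose 2 entries disagree. MCM2, a subunit of the replicative helicase (chromosome 3, 127598223 to 127622436, plus strand), had 423, 351 and 329 CPM in LPDS, against 154, 141 and 138 CPM in FBS (log2 fold change 1.35 ± 0.11, adjusted p = 9.29e-12). LIG1, the ligase that joins Okazaki fragments, was at 107, 108 and 99.9 CPM in LPDS, against 66.8, 56.2 and 34.9 CPM in FBS (log2 fold change 0.98 ± 0.16, adjusted p = 2.37e-05). CHAF1A, a histone chaperone of replicating DNA, was at 101, 69 and 89.8 CPM in LPDS, against 45.8, 58.1 and 46 CPM in FBS (log2 fold change 0.79 ± 0.19, adjusted p = 0.00237). CCNE2, cyclin E2, had 83.4, 41.3 and 46.5 CPM in LPDS, against 28.9, 25.2 and 30.4 CPM in FBS (log2 fold change 1.03 ± 0.19, adjusted p = 0.000141), of which 0.64 remained without LPDS replicate 1. CLSPN, a checkpoint adaptor, passed at 0.52 and did not without LPDS replicate 1 (0.26, adjusted p = 0.407). It also did not pass without any 1 FBS library (adjusted p = 0.0853 to 0.113), nor with DESeq2. GINS4, a helicase subunit, cannot be given a direction. Its more abundant entry fell (log2 fold change -0.63 ± 0.10, adjusted p = 2.26e-05) and a second one was higher by 0.55 (adjusted p = 0.00771).

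For homologous recombination and crosslink repair, 2 of 9 readable members rose, which is near the share over all source genes, and none fell. RAD54L, a motor protein of strand exchange, measured 172, 141 and 142 CPM in LPDS, against 69.5, 91 and 64.5 CPM in FBS (log2 fold change 1.01 ± 0.12, adjusted p = 4.38e-08). FANCA, part of the Fanconi core complex, had 110, 110 and 114 CPM in LPDS, against 44.7, 48.7 and 46 CPM in FBS (log2 fold change 1.26 ± 0.13, adjusted p = 4.04e-09). In the mitosis list 5 of 12 rose and 1 fell, with 3 to 6 higher and 1 or 2 lower when single libraries were left out (3 higher and 2 lower without LPDS replicate 1, 2 lower without FBS replicate 3). CDCA3, which promotes mitotic entry, had 70.8, 64.9 and 79.1 CPM in LPDS, against 36.8, 36.1 and 35.3 CPM in FBS (log2 fold change 0.99 ± 0.15, adjusted p = 4.68e-06). CCNF, cyclin F, measured 231, 237 and 196 CPM in LPDS, against 151, 167 and 129 CPM in FBS (log2 fold change 0.56 ± 0.11, adjusted p = 0.000191). ANLN, a cytokinesis scaffold, had a log2 fold change of 0.57 ± 0.13 (adjusted p = 0.00169). HMMR, a spindle protein, fell, with 102, 114 and 76.8 CPM in LPDS, against 153, 190 and 135 CPM in FBS (log2 fold change -0.71 ± 0.13, adjusted p = 0.000145). PLK1, the mitotic kinase, had 308, 284 and 273 CPM in LPDS and 308, 306 and 237 CPM in FBS and did not pass (adjusted p = 0.921). In the list of growth arrest genes, 1 of 11 rose and 2 fell, and the rise held without FBS replicate 1 but not without any 1 of the other 5 libraries. TP53I3, a quinone oxidoreductase, was at 107, 118 and 90.1 CPM in LPDS, against 225, 188 and 189 CPM in FBS (log2 fold change -0.93 ± 0.13, adjusted p = 7.28e-07). The count that fell was 1 without FBS replicate 3, without LPDS replicate 2 or without LPDS replicate 3.

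Immediate early genes, which respond within minutes to growth signals, were higher in 4 of 5 readable cases, with a median of 1.34. Of all source genes 15.1% were higher. IER2 had 2311, 2588 and 2893 CPM in LPDS, against 676, 647 and 793 CPM in FBS (log2 fold change 1.88 ± 0.13, adjusted p = 3.79e-14). NR4A1, an orphan nuclear receptor, measured 273, 336 and 360 CPM in LPDS, against 113, 130 and 141 CPM in FBS (log2 fold change 1.34 ± 0.14, adjusted p = 2.39e-09). EGR3 was at 26.8, 26.4 and 34.5 CPM in LPDS, against 3.79, 5.81 and 6.57 CPM in FBS (log2 fold change 2.44 ± 0.38, adjusted p = 7.77e-06). Its FBS values lay near the floor of 5.74 CPM, so the size of its change is uncertain. JUNB, an AP-1 subunit, was at 567, 676 and 783 CPM in LPDS, against 417, 403 and 397 CPM in FBS (log2 fold change 0.73 ± 0.15, adjusted p = 0.000284). Like 49.9% of all source genes, each of these 4 genes had separate groups. PHLDA1 did not pass (-0.06, adjusted p = 0.807).

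Hypoxia genes were lower in 6 of 9 readable cases and higher in none, with a median of -0.62, where 19% of all source genes were lower and 15.1% higher. P4HA2, which hydroxylates collagen prolines (chromosome 5, 132191838 to 132295315, minus strand), had 123, 151 and 111 CPM in LPDS, against 380, 375 and 373 CPM in FBS (log2 fold change -1.55 ± 0.13, adjusted p = 6.64e-12). LOX, which crosslinks collagen, measured 284, 351 and 306 CPM in LPDS, against 674, 673 and 623 CPM in FBS (log2 fold change -1.07 ± 0.10, adjusted p = 4.56e-10). MXI1, an antagonist of MYC, was at 39, 42.6 and 50.4 CPM in LPDS, against 90.5, 78.4 and 72.7 CPM in FBS (log2 fold change -0.87 ± 0.17, adjusted p = 0.000231). ANKRD37, an ankyrin repeat protein, was at 46.9, 54.1 and 57.6 CPM in LPDS, against 78.5, 93 and 72.7 CPM in FBS (log2 fold change -0.62 ± 0.14, adjusted p = 0.00145). HIF1A, the hypoxia transcription factor, had 132, 123 and 121 CPM in LPDS and 125, 142 and 120 CPM in FBS and did not pass (adjusted p = 0.863). Of 6 readable axon guidance and growth signal genes 4 fell, against the same 19% over all source genes. NRP1, a co-receptor of semaphorins and VEGF, had 168, 172 and 167 CPM in LPDS, against 388, 370 and 332 CPM in FBS (log2 fold change -1.10 ± 0.14, adjusted p = 1.74e-07). Its relative NRP2 had 18.9, 27.7 and 18.2 CPM in LPDS, against 53.3, 55.8 and 54.2 CPM in FBS (log2 fold change -1.33 ± 0.21, adjusted p = 1.02e-05). BDNF, a neurotrophin, measured 91, 68 and 78.8 CPM in LPDS, against 123, 136 and 160 CPM in FBS (log2 fold change -0.81 ± 0.16, adjusted p = 0.000244). EFNB2, an ephrin ligand, had a log2 fold change of -0.52 ± 0.12 (adjusted p = 0.00111). All 4 were lower in each LPDS library than in each FBS library, where 49.9% of all source genes had separate groups in either direction.

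The collagen and matrix list was split, with 3 of 14 readable members higher and 5 lower, and 1 or 2 higher and 3 to 5 lower when any single library was left out. Over all source genes 15.1% were higher and 19% lower, which applies to the other lists here too. LAMB1, a laminin chain, was at 374, 479 and 407 CPM in LPDS, against 640, 582 and 577 CPM in FBS (log2 fold change -0.51 ± 0.11, adjusted p = 0.000538), and a second entry over LAMB1 gave 0.17 (adjusted p = 0.639). TIMP2, an inhibitor of matrix proteases, had 1287, 1381 and 1245 CPM in LPDS, against 996, 1032 and 975 CPM in FBS (log2 fold change 0.38 ± 0.10, adjusted p = 0.00665). In the Wnt list 2 of 4 fell and 1 rose. NKD1, a feedback inhibitor of the pathway, had 281, 341 and 360 CPM in LPDS, against 734, 799 and 534 CPM in FBS (log2 fold change -1.07 ± 0.15, adjusted p = 1.23e-06). LEF1, a nuclear effector, measured 120, 137 and 133 CPM in LPDS, against 207, 222 and 186 CPM in FBS (log2 fold change -0.66 ± 0.12, adjusted p = 0.000115). Its relative TCF7 had 33.4, 54.5 and 46.2 CPM in LPDS, against 18.6, 22.6 and 23.4 CPM in FBS (log2 fold change 1.05 ± 0.22, adjusted p = 0.000496). Among 6 readable YAP and TGF-beta targets 3 fell and none rose. AXL, a receptor kinase, was one (log2 fold change -0.92 ± 0.15, adjusted p = 2.41e-05). ACTA2, smooth muscle actin, was another (log2 fold change -0.89 ± 0.14, adjusted p = 1.23e-05), with a second entry at -0.33 (adjusted p = 0.366).

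**Figure D4:**
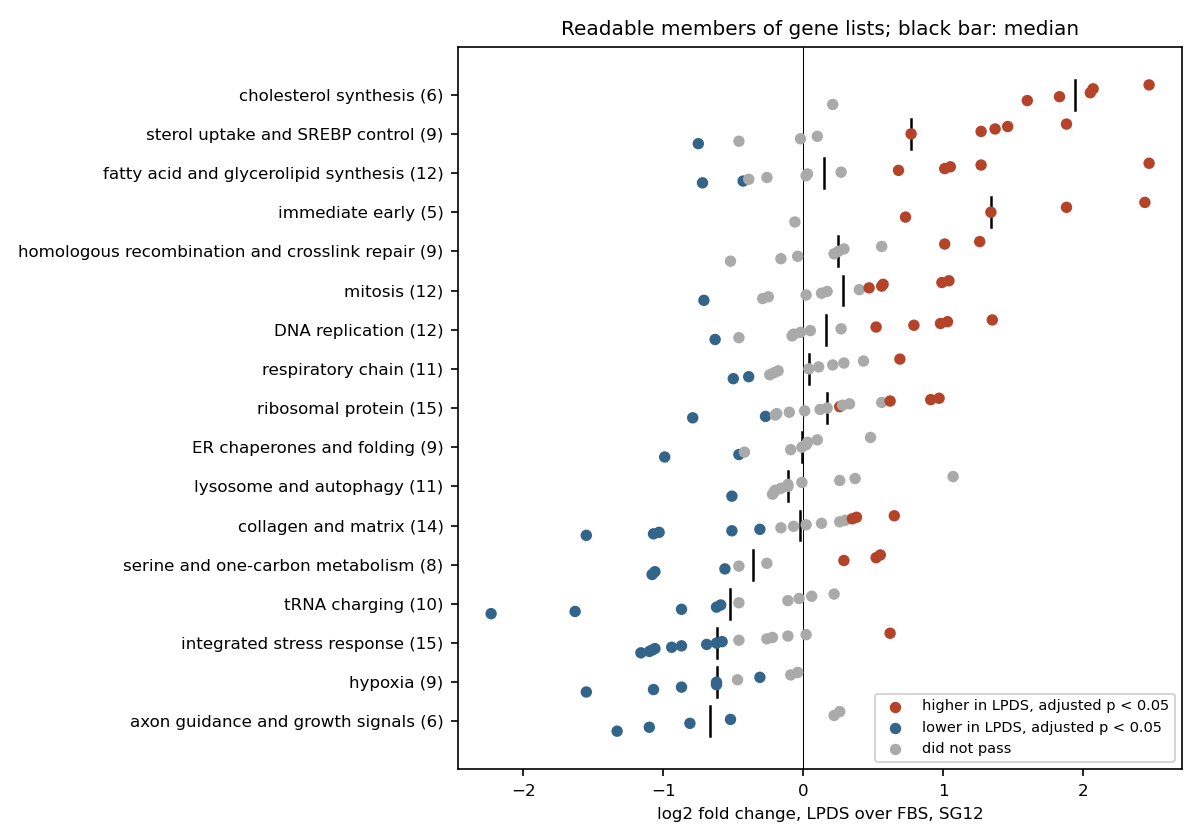
Each point is a readable member of a gene list (number in brackets), placed by its log2 fold change of LPDS over FBS in SG12, red or blue where it passed higher or lower and grey where it did not. Black bars are medians, which run between 1.94 for cholesterol synthesis and -0.67 for axon guidance and growth signals.

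Organelle and housekeeping lists stayed near 0 at the median. The shares over all source genes, to be set beside each count here, were 15.1% higher and 19% lower. Of 11 readable respiratory chain genes 1 rose and 2 fell (median 0.04), and 1 or 2 fell when single libraries were left out. NDUFB9, a complex I subunit, had 421, 397 and 382 CPM in LPDS, against 216, 199 and 330 CPM in FBS, with FBS replicate 3 between the groups (log2 fold change 0.69 ± 0.15, adjusted p = 0.000873). NDUFS7, another subunit, had 546, 599 and 561 CPM in LPDS, against 892, 850 and 678 CPM in FBS (log2 fold change -0.50 ± 0.11, adjusted p = 0.000542). In the TCA cycle IDH3G passed of 8 readable genes (log2 fold change 0.34 ± 0.12, adjusted p = 0.032), but did not without FBS replicate 1 or 3 or LPDS replicate 2 or 3. Without FBS replicate 3, 1 gene fell in each of the TCA cycle, glycolysis and heat shock lists, where none fell with it. In glycolysis 1 of 5 rose, ALDOC (log2 fold change 0.43 ± 0.10, adjusted p = 0.00215). Mitochondrial ribosome and import genes rose in 4 of 14 cases and fell in 2, and as few as 1 rose without FBS replicate 1 or without FBS replicate 2. HSPE1, the mitochondrial co-chaperonin read through the overlapping HSPD1 entry, had 36.5, 50.7 and 39.1 CPM in LPDS, against 11.4, 15.2 and 17.7 CPM in FBS (log2 fold change 1.52 ± 0.26, adjusted p = 2.97e-05).

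The same shares, 15.1% higher and 19% lower over all source genes, stand beside the next lists. Ribosomal protein genes rose in 4 of 15 cases (6 without FBS replicate 3), and fell in 2. RPL15 was among those that fell (log2 fold change -0.79 ± 0.10, adjusted p = 4.91e-07), and only 1 fell when FBS replicate 1, FBS replicate 2 or any 1 LPDS library was left out. Lysosome and autophagy genes passed in 1 of 11 cases, HEXA, a lysosomal hexosaminidase (log2 fold change -0.51 ± 0.12, adjusted p = 0.00146). Endoplasmic reticulum chaperones fell in 2 of 9, OS9 (log2 fold change -0.46 ± 0.10, adjusted p = 0.00086) and SERP1 (log2 fold change -0.99 ± 0.31, adjusted p = 0.017). SERP1 did not pass without LPDS replicate 2 or 3 (adjusted p = 0.0825 and 0.0851). In the heat shock list 2 of 4 rose, HSF1 (log2 fold change 1.13 ± 0.22, adjusted p = 0.000284) and DNAJB1 (log2 fold change 1.01 ± 0.21, adjusted p = 0.000401). In the NRF2 and glutathione list 1 of 7 rose and 3 fell, beside 15.1% and 19% of all source genes. With single libraries left out, 2 rose without FBS replicate 1 or LPDS replicate 1, and 2 fell without any 1 library other than FBS replicate 3, without which 4 fell. PRDX1, a peroxide-reducing enzyme, had 1787, 1717 and 1606 CPM in LPDS, against 903, 795 and 793 CPM in FBS (log2 fold change 1.04 ± 0.09, adjusted p = 9.75e-12). FTH1, the ferritin heavy chain, had 10901, 10627 and 10343 CPM in LPDS, against 14954, 14095 and 14881 CPM in FBS (log2 fold change -0.46 ± 0.08, adjusted p = 7.7e-05).

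Outside the lists, the largest changes among genes whose mean over all 24 libraries was above 48.6 CPM (the 99th percentile of the same 9461 entries) came at loci of varied function. LBHD1 had 345, 425 and 533 CPM in LPDS, against 57.8, 62.9 and 76.8 CPM in FBS (log2 fold change 2.72 ± 0.15, adjusted p = 8.65e-17), in a locus where LBHD1, CSKMT and UQCC3 overlap, so the source of these reads is uncertain. PRUNE2 had 352, 453 and 380 CPM in LPDS, against 104, 123 and 97.3 CPM in FBS (log2 fold change 1.87 ± 0.11, adjusted p = 2.91e-15), and a second entry gave 2.08. SLCO4A1, an organic anion transporter, was at 85, 90.3 and 93.7 CPM in LPDS, against 30.6, 34.5 and 26.3 CPM in FBS (log2 fold change 1.55 ± 0.14, adjusted p = 1.1e-10). FXYD6, which modulates the sodium-potassium ATPase, had 34, 30.1 and 31.6 CPM in LPDS, against 7.57, 11.6 and 8.21 CPM in FBS (log2 fold change 1.79 ± 0.20, adjusted p = 1.09e-08). All 6 of these values are below that floor, which FXYD6 passed through the other lines. SMTN, smoothelin, was at 99.5, 72.4 and 99.6 CPM in LPDS, against 36.1, 36.8 and 26.7 CPM in FBS (log2 fold change 1.44 ± 0.16, adjusted p = 9.59e-09). DAZAP2 also rose (log2 fold change 1.52 ± 0.17, adjusted p = 1.84e-08).

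Among the falls SAMD11 was largest, with 190, 152 and 159 CPM in LPDS, against 914, 956 and 847 CPM in FBS (log2 fold change -2.44 ± 0.11, adjusted p = 3.24e-19). SNTB1, a syntrophin of the dystrophin complex, had 46.9, 49 and 53.7 CPM in LPDS, against 232, 191 and 187 CPM in FBS (log2 fold change -2.03 ± 0.12, adjusted p = 2.75e-15). CHMP4C, an ESCRT-III subunit, measured 26.8, 42.3 and 30.9 CPM in LPDS, against 106, 101 and 96.9 CPM in FBS (log2 fold change -1.60 ± 0.18, adjusted p = 3.04e-08). Separate groups were a condition for naming a gene by size, so they add no support here. PER3, a circadian clock gene, was at 436, 484 and 456 CPM in LPDS, against 1123, 1106 and 1037 CPM in FBS (log2 fold change -1.25 ± 0.09, adjusted p = 3.07e-13). NFE2L1, the factor that restores proteasome genes, was at 400, 401 and 411 CPM in LPDS, against 1074, 991 and 942 CPM in FBS (log2 fold change -1.31 ± 0.10, adjusted p = 2.19e-12). NUDT17, PYROXD1, CCDC33, LIN7B, STRN4, CACNA1H and TRAK2 fell by 1.31 to 1.58 on the log2 scale. For STRN4 a second entry gave -0.45 (adjusted p = 0.00166).

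Whether the response of SG12 differed from that of another line was tested as the difference of the 2 responses. It passed for 542 of 2830 source genes against SGCTRL (19.2%), 613 against SG21 (21.7%) and 453 against parental cells (16%). These comparisons share the SG12 libraries. Ambiguous reads made up 2.104% to 2.238% of reads on genes in the SGCTRL libraries, and 2.147% and 2.18% in SG21 LPDS replicates 2 and 3. Their share was 2.715% in SG21 LPDS replicate 1 and 2.583% to 2.655% in SG21 in FBS. The SG21 response thus mixes both kinds of library, which also bears on counts of genes that differ from all 3 lines. A term for this split was added after the data were seen. It leaves SG21 in LPDS to 1 library, so the lower count it gave is not reported. Of the 967 genes called in SG12, 269 (27.8%) differed from all 3 lines, 97 of them higher in LPDS and 172 lower.

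HMGCS1 and LSS were higher in LPDS in every line, and by more in SG12. HMGCS1 had log2 fold changes of 2.47 ± 0.11 in SG12, 0.97 ± 0.10 in SGCTRL, 1.18 ± 0.10 in SG21 and 1.26 ± 0.10 in parental cells. The difference of SG12 from SGCTRL was 1.50 ± 0.15 (adjusted p = 3.34e-09). For LSS the response was 2.07 ± 0.10 in SG12, 0.77 ± 0.10 in SGCTRL, 1.08 ± 0.10 in SG21 and 1.03 ± 0.10 in parental cells. IDI1, ACAT2 and PCYT2 likewise differed from all 3 lines. Levels showed at which end the difference lay. In FBS, HMGCS1 was at 485 ± 73.2 CPM in SG12, 1967 ± 193 CPM in SGCTRL, 1228 ± 86.9 CPM in SG21 and 962 ± 53.5 CPM in parental cells. In LPDS it was at 2687 ± 180 CPM in SG12, 3864 ± 198 CPM in SGCTRL, 2775 ± 223 CPM in SG21 and 2302 ± 353 CPM in parental cells (SD, n = 3 each). SG12 thus lay below all 3 lines in FBS and within their range in LPDS.

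The amino acid genes gave differences of the opposite sign. WARS1 had responses of -2.23 ± 0.10 in SG12, 0.37 ± 0.10 in SGCTRL, 0.49 ± 0.10 in SG21 and 0.41 ± 0.10 in parental cells. SG12 differed from SGCTRL by -2.59 ± 0.14 (adjusted p = 8.61e-16). Its FBS level was 1239 ± 84.7 CPM in SG12, 419 ± 10.6 CPM in SGCTRL, 340 ± 35.8 CPM in SG21 and 370 ± 37.3 CPM in parental cells. Its LPDS level was 265 ± 24.6 CPM in SG12, 541 ± 45.8 CPM in SGCTRL, 479 ± 19.6 CPM in SG21 and 492 ± 3.84 CPM in parental cells. WARS1 in SG12 was thus above the other lines in FBS and below them in LPDS. SLC7A11 responded by -1.10 ± 0.11 in SG12, 0.04 ± 0.11 in SGCTRL, 0.77 ± 0.11 in SG21 and 0.73 ± 0.11 in parental cells. AIMP2, MARS1, MTHFD2, ALDH1L2, SLC7A5 and SLC1A5 also differed from all 3 lines. MCM2 responded by 1.35 ± 0.11 in SG12, -0.31 ± 0.10 in SGCTRL, 0.46 ± 0.10 in SG21 and -0.20 ± 0.10 in parental cells. Its FBS level was 144 ± 8.32 CPM in SG12, against 647 to 758 CPM in the other lines.

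Not all of the response set SG12 apart. For LBHD1 the response was 2.72 ± 0.15 in SG12, 2.42 ± 0.14 in SGCTRL, 2.30 ± 0.15 in SG21 and 2.51 ± 0.15 in parental cells, and the differences (0.31, 0.42 and 0.21) did not pass. PRUNE2, LPCAT3, MXI1 and JUNB gave the same result, with differences between -0.31 and 0.38 that missed the threshold, which does not show that the lines respond alike. Over the 269 genes that differed from all 3 lines, the mean of SG12 lay outside the range of the other 3 line means for 175 (65.1%) in LPDS and for 252 (93.7%) in FBS. Over all 2830 source genes the shares were 61.4% in LPDS and 63.6% in FBS, so the LPDS share of the 269 genes was near the share of all genes. Its median distance from their average was 0.25 in LPDS and 0.85 in FBS on the log2 scale. Over all source genes these medians were 0.24 in LPDS and 0.33 in FBS. On that scale 77 genes in LPDS (2.72%) and 221 in FBS (7.81%) lay more than 1 away. The 269 genes were chosen by a difference that uses both media, so their values are a description.

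**Figure D5:**
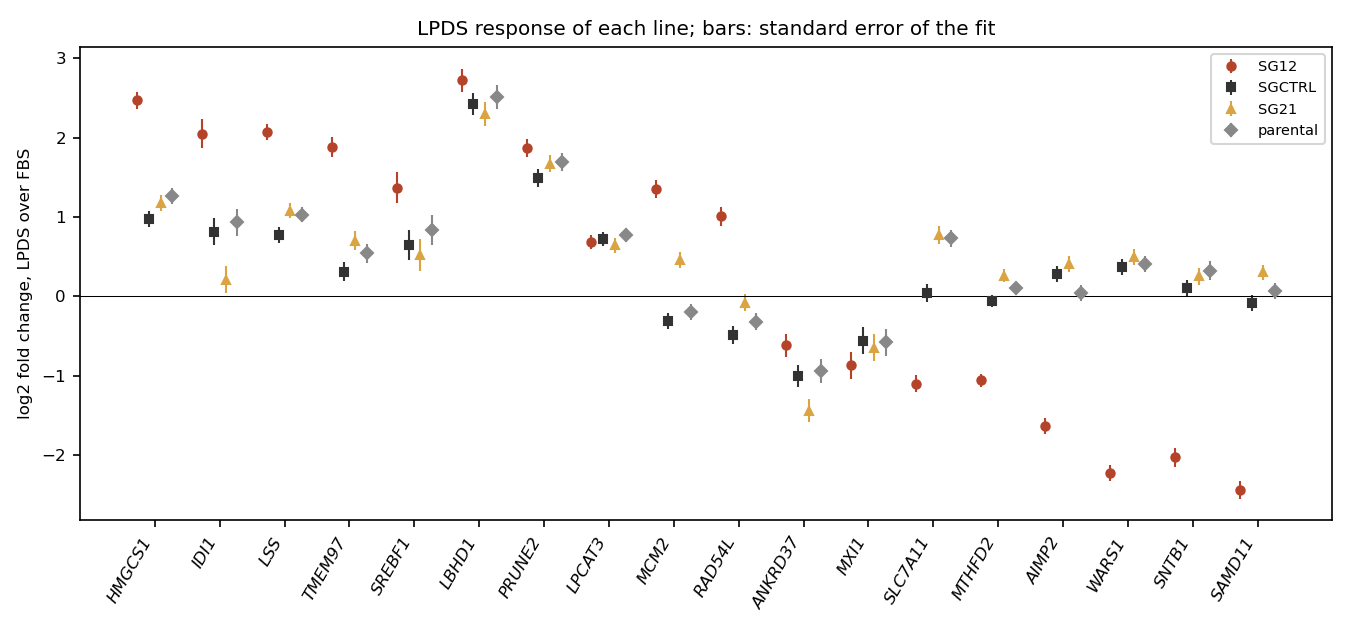
Points show the log2 fold change of LPDS over FBS in SG12 (red), SGCTRL (black), SG21 (yellow) and parental cells (grey) for 18 genes, with the standard error of the fit. SG12 lies above the other lines for the sterol genes and below 0 where they lie near or above 0 for SLC7A11, MTHFD2, AIMP2, WARS1, SNTB1 and SAMD11, while the 4 lines lie together for LBHD1, PRUNE2 and LPCAT3.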

How the data were processed

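Total RNA of 24 HGC27 samples was made into stranded, ribosome-depleted libraries from 100 ng each, per the labels' protocols. The submitters' processing notes name bcl2fastq, STAR and the build hg38. Versions, the counting program, its strand setting and its annotation are not given in the sources used here. The authors deposited raw read counts per gene entry, 1 table per library, and the 5 closing entries (no gene, ambiguous, low quality, unaligned, multiple) were left out of library sizes. Reads on no gene were 94.28% to 94.58% of uniquely aligned reads in SG12.

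Of 61578 entries, 56675 matched GENCODE 29 and 10127 got a source gene by the overlap rule (the entry with the highest mean where several read 1 gene). Entries whose own gene probably gave over 50% of their reads were set aside (92), from a leak rate of 0.0976% of sense density. The test was made with edgeR 4.0.16 (R 4.3.3): TMM, filterByExpr (12822 entries), quasi-likelihood F test on all 24 libraries with a mean per group, Benjamini-Hochberg adjustment over all entries of a comparison, threshold 0.05. Errors of fold changes are standard errors from the F statistic, and are approximate. The fit was tested on simulated data. DESeq2 1.42.0, other filters and scalings, a replicate block and single libraries left out were alternatives.

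Lists, naming rule and alternatives were chosen with earlier results of these data known. Named are TMEM97, IFT20, NPC1, PGRMC1, all readable cholesterol synthesis genes, up to 6 passing members of each other list by adjusted p, the 15 largest rises and falls with separate groups above the 99th percentile floor, and 4 own-name entries each way. Members named though they did not pass were chosen after their values were seen. Not every gene named by the rule is described, and some results are not reported here.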

Additional observations from a re-analysis of the deposited data

Results flagged for a closer look

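Of the 125 named genes called in SG12, 60 had an LPDS response that differed from that of each of the 3 other lines (adjusted p under 0.05, edgeR). Of all 967 called source genes 269 did (27.8%). The named genes were picked in part by adjusted p and size of change in SG12, so their count is a description. Of the 60, 34 had differences all over 1 in size on the log2 scale, of which 33 are given here with the difference from SGCTRL. The 3 tests share the SG12 libraries. For lipid genes the response of SG12 exceeded that of SGCTRL: HMGCS1 by 1.50, PCYT2 by 1.55, TMEM97 by 1.57, IDI1 by 1.24 and LRP8 by 1.22. In replication, repair and division genes it exceeded that of SGCTRL for CDCA3 by 1.52, RAD54L by 1.50, KIF20A by 1.42 and FANCA by 1.28. KIF20A did not pass in SG12 itself without FBS replicate 2 or 3 or LPDS replicate 1 (adjusted p = 0.0699, 0.072 and 0.0663). Other genes with a higher response were FXYD6 by 2.20, SMTN by 1.82, HSPE1 by 1.73, DAZAP2 by 1.36 and SLCO4A1 by 1.36. FXYD6 averaged 31.9 CPM in LPDS and 9.13 CPM in FBS in SG12, against 119 CPM in LPDS and 158 CPM in FBS in SGCTRL, so it was lower in SG12 in both media. 

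In amino acid, folate and tRNA charging genes the response of SG12 was lower than that of SGCTRL: WARS1 by -2.59, AIMP2 by -1.91, SLC7A11 by -1.14, MARS1 by -1.13, ALDH1L2 by -1.08 and MTHFD2 by -1.0. AIMP2 averaged 1077 CPM in LPDS and 3330 CPM in FBS in SG12, against 1421 CPM in LPDS and 1167 CPM in FBS in SGCTRL. Lower responses were also found for SAMD11 by -2.35, SNTB1 by -2.13, TRAK2 by -1.87, PYROXD1 by -1.65, CHMP4C by -1.64, NUDT17 by -1.51 and PER3 by -1.41. The remaining ones were CCDC33 by -1.37, STRN4 by -1.37, TP53I3 by -1.32, NFE2L1 by -1.27, ACTA2 by -1.25 and BDNF by -1.14. PER3 averaged 459 CPM in LPDS and 1089 CPM in FBS in SG12, against 459 CPM in LPDS and 409 CPM in FBS in SGCTRL, so the LPDS levels were alike and the FBS levels were not. SNTB1 averaged 49.9 CPM in LPDS and 203 CPM in FBS in SG12, against 232 CPM in LPDS and 216 CPM in FBS in SGCTRL, where the LPDS levels differed.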

How the results depend on the processing

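No fold change in SG12 of a gene or entry taken by the naming rule changed sign under the alternatives run (genes described outside the rule were not checked), but the balance of calls did: 1488 entries were higher and 1394 lower, against 1403 and 1548 with DESeq2 size factors in edgeR, 1283 and 1445 with DESeq2, and 1000 and 1005 without FBS replicate 1. The median over entries was 0.021, and -0.010 with DESeq2 size factors. The 2882 entries called in SG12 became 2951 with DESeq2 size factors in edgeR, 2728 with DESeq2 itself, 2359 with no filter on low counts, 2645 with at least 1 CPM in 3 libraries, 2860 with all uniquely aligned reads as library size and 2884 with the 6 SG12 libraries alone. Leaving out single SG12 libraries gave 1980 to 2979 (1000 to 1453 higher, 963 to 1526 lower; source genes 326 to 390 higher, 405 to 608 lower). Requiring 200 bases and 95% of the overlap left 1844 source genes, with 307 higher and 349 lower. The 99th percentile floor left 1609, with 260 higher and 417 lower. Both settings read fewer genes, which lowers the counts. The difference from SGCTRL was called in 1331 entries (651 higher, 680 lower), 907 to 1674 when single libraries of either line were left out, with 433 to 793 higher (433 without SG12 FBS replicate 1) and 474 to 881 lower. The difference from parental cells was called in 1031, 801 to 1131 on leaving out. The difference from SG21 was called in 1653 (842 higher, 811 lower), 1167 to 1981 on leaving out, and in 836 (423 higher, 413 lower) with a term for the library split; the cause was not tested. The deviations of same-numbered SG12 libraries correlated at -0.0288, 0.00152 and -0.031, so no pairing by replicate number was seen. With 3 libraries per medium these values cannot show that there was none. With the line by replicate block 2683 entries were called, and 2777 in the 6 libraries with the block. Of 125 named genes called, 100 kept call and direction under all 14 settings. Each value rests on 3 libraries of 2532742 to 3252414 counts.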

Other observations

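Some entries with no annotated gene on the opposite strand changed under their own name, at low levels. RADIL, an adaptor of Rap signalling, had 13.5, 15.2 and 17.9 CPM in LPDS, against 1.03, 1.94 and 2.46 CPM in FBS, and GSS, glutathione synthetase, 11.3, 18.6 and 21.2 CPM in LPDS, against 2.06, 1.94 and 2.05 CPM in FBS. CCDC117 had 5.04, 6.76 and 4.88 CPM in LPDS, against 0, 0.645 and 0 CPM in FBS. In the other direction DLX5, a homeobox gene, had 1.89, 3.38 and 0.976 CPM in LPDS, against 16.2, 21 and 23.4 CPM in FBS, H3C6, a replication histone, 1.57, 2.37 and 5.86 CPM in LPDS, against 31, 29.4 and 32 CPM in FBS, AKNA 1.57, 0.676 and 1.3 CPM in LPDS, against 25.5, 15.5 and 9.45 CPM in FBS and RAB7B 3.15, 0.338 and 0.325 CPM in LPDS, against 16.9, 16.1 and 6.57 CPM in FBS. A pass of the edgeR test, separate groups and an average log2 CPM of at least 2 were conditions for picking these entries. They thus add no support. In the other 3 lines H3C6 averaged 0.762 to 3.68 CPM and DLX5 1.56 to 5.86 CPM. Both reached that average mainly through SG12 in FBS, at 30.8 CPM for H3C6 and 20.2 CPM for DLX5. The strand and transcript behind the reads of these entries are not known. 

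Lists not described above held few readable genes. Their counts stand beside 15.1% of all source genes called higher and 19% called lower. Of 4 readable genes of fatty acid oxidation and ketone use 1 was called higher (none without any 1 library other than LPDS replicate 3) and 1 lower (none without FBS replicate 2), of 9 of the nucleolus and ribosome assembly 1 higher and 1 lower, and of 3 LXR targets 2 higher, LPCAT3 and SREBF1. The interferon list had 1 readable gene of 42, WARS1. No gene of the mitochondrial genome list was readable. Of 7 readable mesenchymal markers 2 were called higher (1 without FBS replicate 2 or LPDS replicate 2 or 3) and 1 lower, and of 3 readable fibroblast markers 1 lower. Where at least 2 entries read the same gene, both were called for 71 of 382 genes, in the same direction for 66 and in opposite directions for 5. Over the 382 genes the log2 fold changes of the 2 entries had a Pearson r of 0.56 and a Spearman rho of 0.50, across genes that share the same libraries.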
